A study of Homo sapiens with 9 samples.

Results

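Collagens and laminins are the large secreted proteins from which cells build fibrils, filaments and basement membranes. The genes described here were chosen by symbol: COL, a number, A and a number for collagen chains, or LAMA, LAMB or LAMC and a digit for laminin chains. This rule found 56 of the 24462 gene symbols counted, 44 collagen and 12 laminin genes. Their levels were measured in U-373MG, an established human line labelled glioblastoma and astrocytoma, by sequencing only the 3′ ends of messenger RNA in 9 libraries. Control cells (3 libraries) were left untreated. NnK-1 cells (3 libraries) and CBRV1-10493 cells (3 libraries) were given 200 nM for 48 h of a synthetic peptide from jellyfish that resembles ShK, a sea anemone toxin known as a blocker of voltage-gated potassium channels. The controls served for both peptides, so the comparisons of each peptide with control share those 3 libraries. All 9 libraries came from this 1 line with no genetic change named, and the treated libraries are labelled biological replicates. Nothing in the labels says whether each had a separate culture, and every p below therefore reflects variation among these 9 libraries, part of which may be technical.

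Library totals lay between 11203094 and 13491075 reads, and levels are given as CPM, the reads of a gene divided by the total of its library and multiplied by 1000000. The labelled cell type was checked against marker genes. VIM, NES, CD44, SOX9 and SOX2 stood in control at 5576, 1434, 1130, 617 and 462 CPM, S100B at 132 CPM and GFAP, the intermediate filament of astrocytes, at 23.4 CPM. The astrocyte markers AQP4 (0.0265 CPM) and ALDH1L1 (no read) were absent or nearly so, while SLC1A3, another marker of the glial list, stood at 98.0 CPM. Of 6 fibroblast markers, THY1 (487 CPM) and PDGFRA (473 CPM) were high, FAP stood at 12.6 CPM, and DCN, LUM and PDPN were at or near 0. The fibroblast list summed to between 934 and 1026 CPM in control, 895 and 1082 CPM with NnK-1, and 1012 and 1046 CPM with CBRV1-10493. The 7 endothelial markers summed to at most 3.79 CPM in any library, with TEK, CLDN5 and ERG at 0 in all 3 groups. In such bulk RNA, fewer cells of a type and less RNA per cell cannot be told apart.

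A collagen molecule is a rope of collagen chains wound around each other inside the cell, and many types need the products of several genes for 1 molecule. Fibrillar collagens form the tensile fibrils, type IV collagen forms the network of basement membranes, and type VI collagen forms beaded filaments around cells. A laminin molecule joins an alpha, a beta and a gamma chain, and in brain laminins and type IV collagen are known mainly from the basement membranes around vessels and at the pial surface. The stretches upstream of 4 sites are shown for reference, and no result below was derived from them. The first is the divergent promoter shared by COL4A1 and COL4A2. COL6A2 was chosen because it had the smallest p among all the collagen and laminin genes. LAMB1 and LAMC1 were chosen as the pair of chains with the highest Pearson's r across the libraries.

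These reference sequences are from RefSeq (GRCh38.p14) and run 5′ to 3′. The 126 bases between the starts of COL4A1 and COL4A2 are chr13:110307158-110307283 on the plus strand, towards COL4A2. The other stretches are the 250 bases before the start of each gene: COL6A2 at chr21:46097862-46098111 (plus strand), LAMB1 at chr7:108003162-108003411 (minus strand) and LAMC1 at chr1:183023170-183023419 (plus strand). Capitals mark each match to the CCAAT motif, to the GC box spelled GGGCGG and to the TATA box spelled TATAAA. Both strands were searched, so a GC box on the other strand appears as CCGCCC.
COL4A1 and COL4A2: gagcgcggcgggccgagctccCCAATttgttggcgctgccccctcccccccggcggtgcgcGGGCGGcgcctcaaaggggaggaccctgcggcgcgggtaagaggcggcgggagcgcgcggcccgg
COL6A2: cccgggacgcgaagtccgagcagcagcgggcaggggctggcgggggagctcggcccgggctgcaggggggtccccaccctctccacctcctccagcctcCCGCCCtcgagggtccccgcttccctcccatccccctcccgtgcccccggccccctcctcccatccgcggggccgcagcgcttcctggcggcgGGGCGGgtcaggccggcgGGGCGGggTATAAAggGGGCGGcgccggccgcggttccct
LAMB1: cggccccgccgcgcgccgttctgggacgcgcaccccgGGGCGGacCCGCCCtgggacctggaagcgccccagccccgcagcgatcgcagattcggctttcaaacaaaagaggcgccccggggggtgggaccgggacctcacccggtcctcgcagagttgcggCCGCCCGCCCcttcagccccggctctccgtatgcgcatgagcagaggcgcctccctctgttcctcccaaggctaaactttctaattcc
LAMC1: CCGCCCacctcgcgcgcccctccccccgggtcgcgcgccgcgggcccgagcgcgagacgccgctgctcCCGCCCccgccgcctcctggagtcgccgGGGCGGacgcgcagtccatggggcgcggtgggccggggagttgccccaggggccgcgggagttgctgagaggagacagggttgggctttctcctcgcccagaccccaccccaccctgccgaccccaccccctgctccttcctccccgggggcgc
The stretch between COL4A1 and COL4A2 holds 1 CCAAT and 1 GGGCGG, and no TATAAA. The COL6A2 stretch holds 4 GGGCGG, with 1 TATAAA lying between the last 2 of them. The LAMB1 stretch holds 4 GGGCGG, of which 2 overlap, and the LAMC1 stretch holds 3, and neither has CCAAT or TATAAA. Of 35116 RefSeq windows of 250 bases, 32.0% hold CCAAT, 42.6% GGGCGG and 10.7% TATAAA. Counting the first window of each of 27305 genes, the shares are 33.0%, 42.3% and 11.1%, and the counts below are made in this way. The promoter table matched 41 of the 56 genes by symbol. GGGCGG lay in 11 of the 12 matched genes averaging 20 CPM or more and in 24 of all 41, CCAAT in 3 of the 12 and 10 of the 41, and TATAAA in 1 of the 12 and 5 of the 41. The shares among other genes averaging 20 CPM or more were not counted. Such a match is a description of letters, not of a bound site.

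U-373MG cells expressed mainly RNA of the collagen chains COL6A1, COL1A2, COL5A1 and COL11A1 and a laminin set led by LAMA4, LAMB1 and LAMC1. Other chains of the same collagen types could be far lower: COL6A3 averaged 15.7 CPM and COL1A1 42.8 CPM over the 9 libraries. Of the 56 genes, 34 (25 collagens and 9 laminins) had enough reads to be tested, 32 reached a mean of 1 CPM over the 9 libraries, 18 reached 20 CPM and 11 reached 100 CPM. All collagens together came to 3451 ± 276 CPM in control (SD, n = 3), or 0.345% of reads, and all laminins to 753 ± 26.7 CPM. Expression was concentrated in few genes: COL6A1 alone gave 35.5% of the collagen CPM in control, and COL6A1 and COL1A2 together 57.4%. Because each transcript is read at its 3′ end, CPM was not divided by gene length, and levels of different genes also carry any difference in how well each 3′ end is captured, which was not measured.

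**Figure D1:**
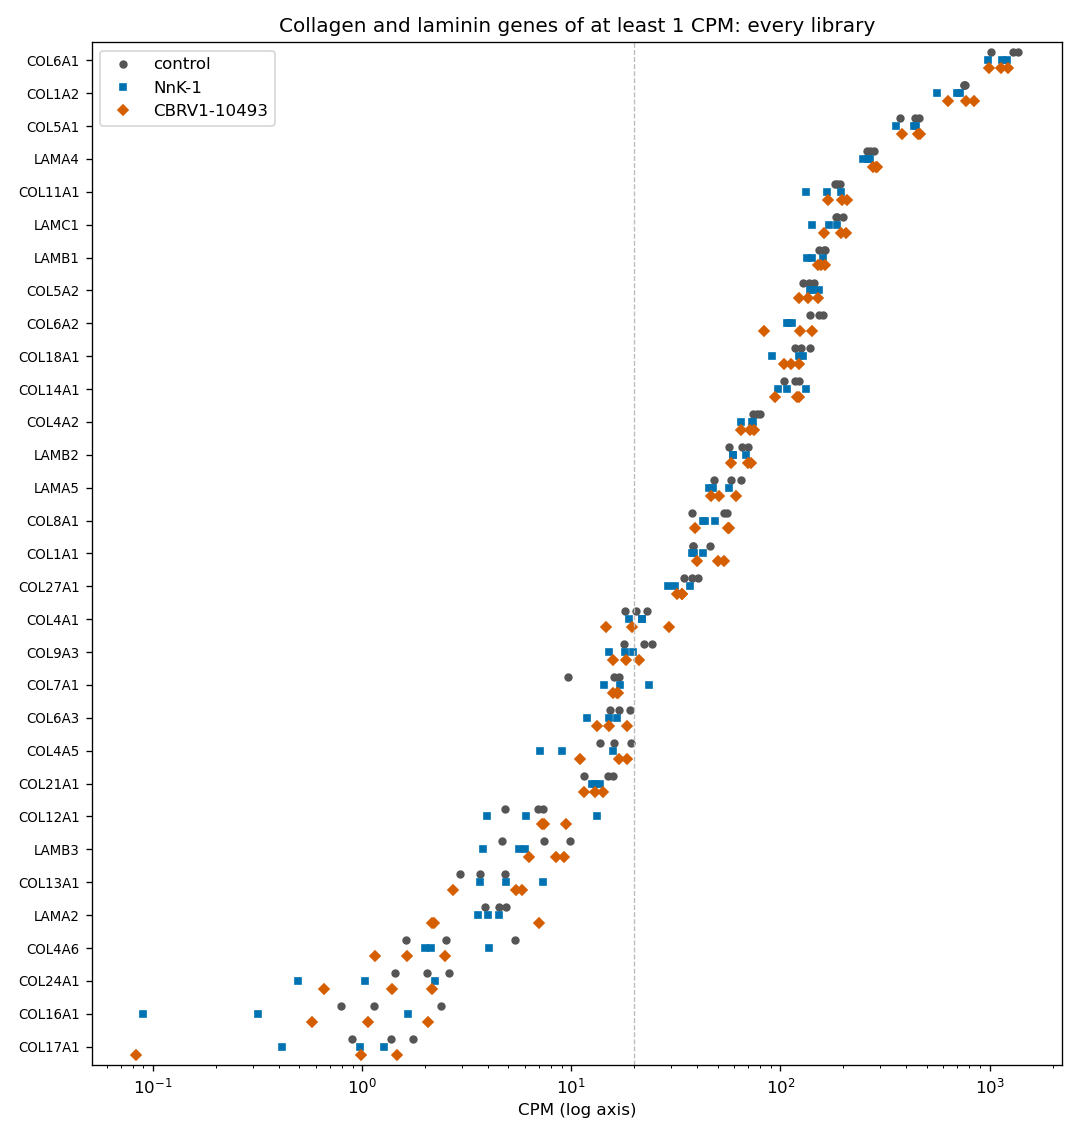
CPM (log axis) of 31 of the 32 collagen and laminin genes averaging 1 CPM or more, ordered by that mean, 1 point per library (grey circles control, blue squares NnK-1, orange diamonds CBRV1-10493; the dashed line is 20 CPM). Levels run from 1153 CPM over all libraries for COL6A1 to 1.03 CPM for COL17A1, and the groups overlap for most genes.

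In control the order of levels ran COL6A1, COL1A2, COL5A1 and LAMA4, each step without overlap between the controls and with the same order in 9 of 9 libraries. COL6A1 ranked 79 among all symbols in control, COL1A2 168, COL5A1 352 and LAMA4 634. Next came LAMC1 and COL11A1, which overlapped each other, and both stood above LAMB1 in control without overlap. Below them lay LAMB1, COL6A2, COL5A2, COL18A1 and COL14A1, each overlapping its neighbour. COL14A1 stood above COL4A2 in 9 of 9 libraries without overlap in control, and COL4A2 above LAMB2 in 8 of 9. Below these, LAMB2, LAMA5, COL8A1, COL1A1 and COL27A1 overlapped in turn, and COL27A1 again stood clear of COL9A3 in 9 of 9.

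Collagen VI gave the highest gene of the set and also the gene with the smallest p. Its classical molecule joins the products of COL6A1, COL6A2 and COL6A3, and it is known as a filament that links cells to the surrounding matrix. In replicates 1 to 3 of each group, the order used for all values below, COL6A1 was counted at 1018, 1296 and 1364 CPM in the controls, 984, 1211 and 1146 CPM with NnK-1 and 998, 1228 and 1134 CPM with CBRV1-10493. The first replicate was the lowest in all 3 groups, and the groups overlapped. COL6A2 stood at 139, 159 and 154 CPM in the controls, 108, 109.6 and 113 CPM with NnK-1 and 83.0, 124 and 142 CPM with CBRV1-10493. All 3 NnK-1 libraries lay below all 3 controls, and with CBRV1-10493 replicate 1 lay far below the other two, of which replicate 3 lay within the control range and replicate 2 below it. COL6A3, the largest chain of the molecule, was far lower at 15.3, 16.9 and 19.0 CPM in the controls, 16.5, 11.9 and 15.2 CPM with NnK-1 and 15.1, 18.4 and 13.2 CPM with CBRV1-10493, with overlapping groups. COL6A6 had 20 reads over all 9 libraries and COL6A5 none. COL7A1, the chain of the anchoring fibrils of skin, stood at 9.67, 16.8 and 16.0 CPM in the controls, 17.1, 23.6 and 14.3 CPM with NnK-1 and 16.6, 15.8 and 16.7 CPM with CBRV1-10493, where control replicate 1 was the lowest of all 9 libraries.

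**Figure D2:**
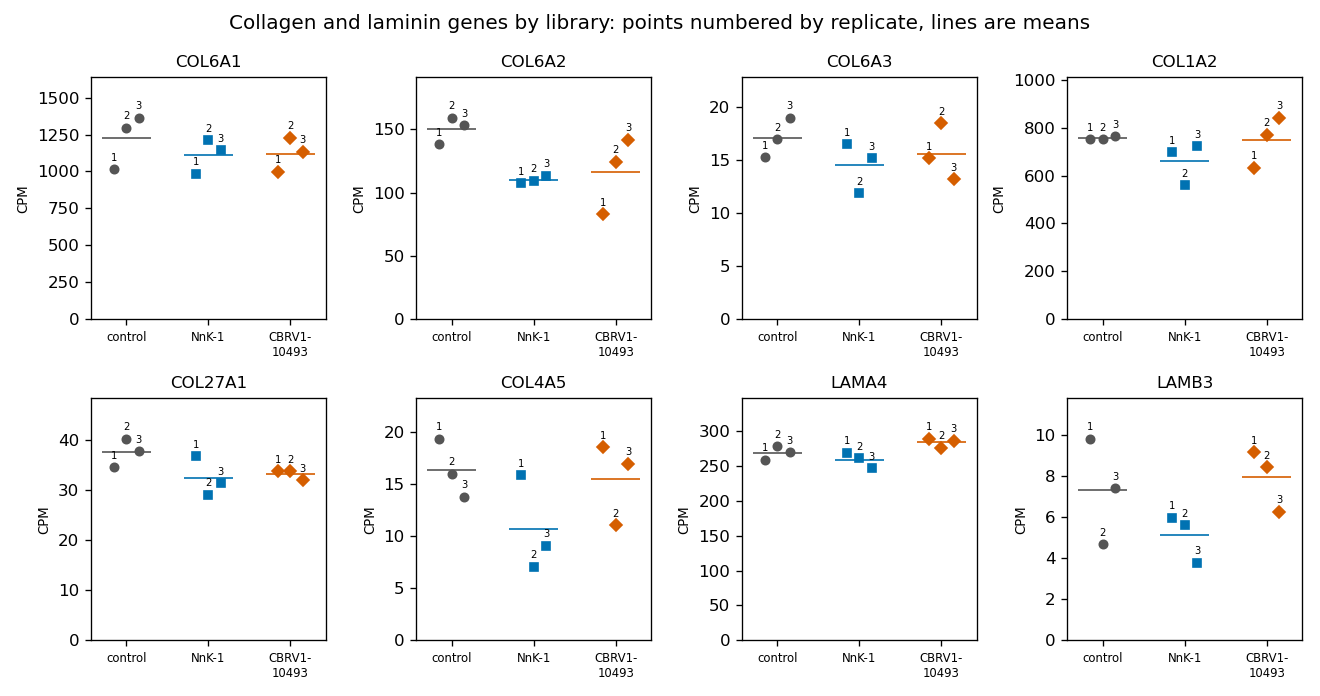
CPM of 8 collagen and laminin genes in each library (points numbered by replicate, horizontal lines the group means, axes from 0). COL6A2 is lower in all 3 NnK-1 libraries (108 to 113 CPM) than in the controls (139 to 159 CPM), while the CBRV1-10493 libraries spread from 83.0 to 142 CPM.

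Among the fibrillar collagens, 7 of 11 genes were tested, and COL1A2, COL5A1, COL11A1 and COL5A2 carried the level. COL1A2, the alpha 2 chain of type I collagen, stood at 751, 753 and 764 CPM in the controls, 697, 559.8 and 722 CPM with NnK-1 and 632, 771 and 842 CPM with CBRV1-10493. The controls lay close together, the NnK-1 libraries all lay below them with replicate 2 the lowest, and the CBRV1-10493 libraries lay on both sides. COL1A1, the alpha 1 chain, which is usually the more abundant chain in type I collagen molecules, was much lower at 45.9, 38.1 and 38.3 CPM in the controls, 42.6, 37.8 and 38.6 CPM with NnK-1 and 40.0, 50.4 and 53.9 CPM with CBRV1-10493. The 3 groups overlapped, and the highest values were those of CBRV1-10493 replicates 2 and 3.

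Type V collagen is known to start and limit the growth of type I fibrils, and type XI does the same for cartilage fibrils. COL5A1 stood at 371, 459 and 438 CPM in the controls, 356, 434 and 446 CPM with NnK-1 and 381, 464 and 454 CPM with CBRV1-10493. COL5A2 stood at 128, 144 and 137 CPM in the controls, 138, 142 and 153 CPM with NnK-1 and 123, 152 and 135 CPM with CBRV1-10493. Neither gene separated the groups, and replicate 1 was the lowest for COL5A1 in all 3. COL11A1 was counted at 193, 187 and 181 CPM in the controls, 133, 167 and 196 CPM with NnK-1 and 169, 197 and 208 CPM with CBRV1-10493, with narrow controls and NnK-1 replicates 1 and 2 below them.

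COL27A1, a fibrillar collagen of cartilage, stood at 34.6, 40.3 and 37.9 CPM in the controls, 36.8, 29.1 and 31.4 CPM with NnK-1 and 33.8, 33.8 and 32.0 CPM with CBRV1-10493. All 3 CBRV1-10493 libraries lay under the lowest control, the nearest of them by less than 1 CPM. COL24A1 averaged 2.02 ± 0.583 CPM in control (SD, n = 3). The other fibrillar genes were near absent: over all 9 libraries COL2A1 had 62 reads, COL11A2 47 (summed over 7 entries), COL3A1 34 and COL5A3 9. COL3A1, a collagen typical of fibroblasts and vessel walls, thus stood at 0.300 CPM in cells with COL1A2 at 721 CPM over the same libraries.

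The basement membrane collagens (type IV) were 6 genes, of which 4 were tested. COL4A2 stood at 74.0, 77.6 and 80.1 CPM in the controls, 64.9, 72.8 and 74.1 CPM with NnK-1 and 65.1, 74.9 and 71.2 CPM with CBRV1-10493, and the groups overlapped. COL4A1, its partner across the divergent promoter shown above, was counted at 20.3, 22.9 and 18.0 CPM in the controls, 21.8, 21.7 and 19.0 CPM with NnK-1 and 14.6, 19.5 and 29.5 CPM with CBRV1-10493, where CBRV1-10493 replicates 1 and 3 were the lowest and the highest of all 9. COL4A5 stood at 19.3, 16.0 and 13.8 CPM in the controls, 15.9, 7.05 and 9.07 CPM with NnK-1 and 18.5, 11.1 and 16.9 CPM with CBRV1-10493, with NnK-1 replicates 2 and 3 below every other library. COL4A6, which lies head to head with COL4A5 on the X chromosome, averaged 3.18 ± 1.97 CPM in control (SD, n = 3), and COL4A3 and COL4A4 had 26 and 24 reads over all 9 libraries.

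The remaining collagens were led by COL18A1 and COL14A1. COL18A1, a collagen of basement membranes whose end fragment is endostatin, stood at 125, 118 and 138 CPM in the controls, 91.6, 123 and 128 CPM with NnK-1 and 103, 112 and 123 CPM with CBRV1-10493, with NnK-1 replicate 1 the lowest. COL14A1, which sits on the surface of type I fibrils, stood at 104, 117 and 123 CPM in the controls, 97.8, 107 and 132 CPM with NnK-1 and 94.3, 119 and 122 CPM with CBRV1-10493, and the groups overlapped. COL8A1, a network collagen of vessels and the cornea, was counted at 37.8, 55.3 and 53.7 CPM in the controls, 48.7, 42.5 and 43.8 CPM with NnK-1 and 56.5, 56.3 and 38.9 CPM with CBRV1-10493. Its controls spread as widely as the peptide libraries.

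Of the 10 fibril-associated genes 6 were tested, and apart from COL14A1 they lay between 0.867 CPM (COL9A2) and 21.5 CPM (COL9A3) in control. COL9A3 stood at 18.0, 24.3 and 22.2 CPM in the controls, 15.2, 18.0 and 19.8 CPM with NnK-1 and 18.3, 21.0 and 15.8 CPM with CBRV1-10493, and COL21A1 averaged 14.1 ± 2.35 CPM in control and COL12A1 6.35 ± 1.34 CPM (SD, n = 3). COL16A1 averaged 1.43 ± 0.830 CPM, with NnK-1 replicate 2 at 0.0893 CPM. The transmembrane collagens COL13A1 and COL17A1 averaged 3.80 ± 0.955 CPM and 1.34 ± 0.430 CPM in control.

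For laminins 1 gene led each chain class. LAMA4, the alpha chain known from vessel walls and muscle, gave 81.4% of the alpha chain CPM in control, LAMB1 69.0% of the beta and LAMC1 98.9% of the gamma. LAMA4 stood at 259, 278 and 269 CPM in the controls, 269, 261 and 247 CPM with NnK-1 and 289, 276 and 286 CPM with CBRV1-10493. The 3 CBRV1-10493 libraries all lay above the 3 NnK-1 libraries, and the controls overlapped both. LAMA5, the alpha chain of many adult basement membranes, stood at 48.3, 57.8 and 65.0 CPM in the controls, 47.5, 45.5 and 56.6 CPM with NnK-1 and 46.7, 61.3 and 50.9 CPM with CBRV1-10493, with overlapping groups. LAMA2, the alpha chain of muscle, averaged 4.42 ± 0.519 CPM in control (SD, n = 3), and LAMA3 and LAMA1 had 27 and 6 reads over all 9 libraries.

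LAMB1, the common beta chain, was counted at 163, 162 and 153 CPM in the controls, 142, 134 and 159 CPM with NnK-1 and 151, 162 and 157 CPM with CBRV1-10493. LAMC1, the common gamma chain, was counted at 183, 200.0 and 186 CPM in the controls, 171, 141 and 186 CPM with NnK-1 and 162, 194 and 207 CPM with CBRV1-10493. NnK-1 replicate 2 was the lowest of all 9 libraries for both genes, and NnK-1 replicate 3 lay within the control range for both. LAMB2, the beta chain of synapses and the kidney filter, stood at 57.0, 70.0 and 65.2 CPM in the controls, 59.6, 59.2 and 68.4 CPM with NnK-1 and 70.1, 72.6 and 57.8 CPM with CBRV1-10493, and its groups overlapped. LAMB3, a chain of the epithelial laminin of skin, stood at 9.83, 4.69 and 7.41 CPM in the controls, 5.98, 5.62 and 3.79 CPM with NnK-1 and 9.18, 8.43 and 6.27 CPM with CBRV1-10493, where all 3 CBRV1-10493 libraries lay above all 3 NnK-1 libraries and the controls overlapped both. LAMC3 averaged 0.491 ± 0.477 CPM in control, and LAMB4 had 2 reads over all 9 libraries.

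The filter on low counts left out 22 of the 56 genes. Of these 17 had some reads, at most 74 over all 9 libraries (COL8A2), and 5 had none: COL20A1, COL28A1, COL22A1, COL6A5 and COL9A1. No read over the 3 libraries of a group allows up to 0.0781 CPM in control, 0.0836 CPM with NnK-1 and 0.0824 CPM with CBRV1-10493 (3 reads over the group, counting error only). The transmembrane genes COL23A1 and COL25A1, the short chain gene COL10A1, the fibril-associated COL19A1 and COL26A1 had between 2 and 10 reads. COL15A1, the multiplexin related to COL18A1, had 20. In the RefSeq annotation (GRCh38.p14) some genes overlap others (COL18A1 with SLC19A1 and COL9A3 with TCFL5) or an antisense gene (COL5A1, LAMA4, LAMC1, COL18A1, COL4A2, LAMA5 and COL16A1). Further overlaps exist, among them COL6A2 with LOC124905043 and LAMB1 with LOC124901861. The sources used here do not give whether the authors' counting used the strand, so reads of such neighbours may be part of these values.

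Summed over genes, the collagens overlapped among all 3 groups, and the laminins overlapped between control and each peptide. The collagen sum was 3134, 3582 and 3637 CPM in the controls, 2922, 3148 and 3335 CPM with NnK-1 and 2894, 3501 and 3485 CPM with CBRV1-10493. The first replicate was the lowest in each group, and the groups overlapped. The laminin sum was 727, 780.0 and 751 CPM in the controls, 700.4, 653 and 729.9 CPM with NnK-1 and 732, 779.8 and 774 CPM with CBRV1-10493. All 3 CBRV1-10493 libraries lay above all 3 NnK-1 libraries, the nearest by less than 2 CPM, and the controls overlapped both. The basement membrane collagens summed to 116, 123 and 115 CPM in the controls and to 105, 104 and 106 CPM with NnK-1, without overlap, and the CBRV1-10493 libraries (99.9, 107 and 120.1 CPM) overlapped both. Laminin alpha chains summed to 312, 341 and 338 CPM in the controls, to 320.5, 311 and 308 CPM with NnK-1 and to 338, 339 and 345 CPM with CBRV1-10493, where again the CBRV1-10493 libraries lay above the NnK-1 libraries without overlap. These sums were not tested, and each is led by 1 or a few genes. How often sums of other genes separate in this way was not counted.

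**Figure D3:**
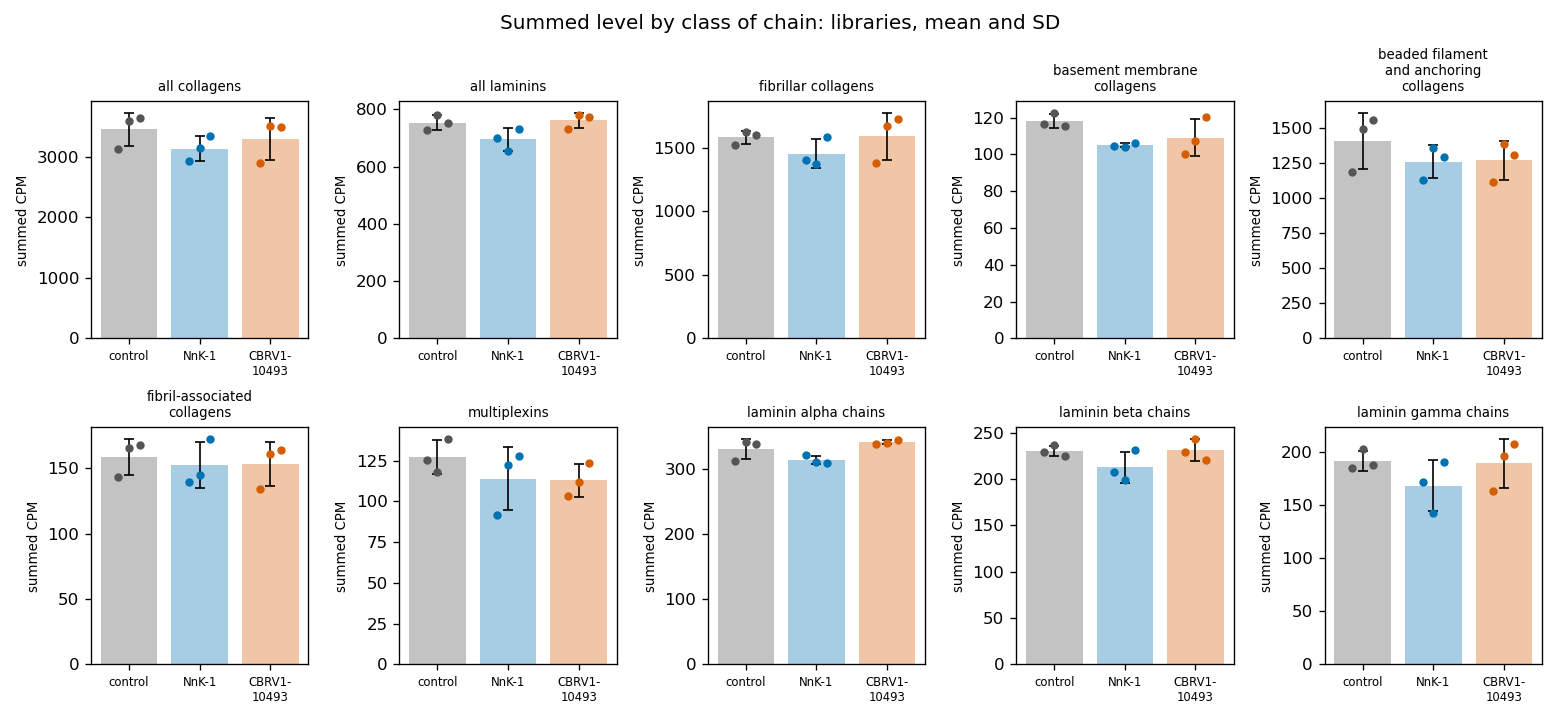
Summed CPM of 10 groupings of the genes, with each library a point (replicates 1 to 3 from left to right), bars the mean and whiskers the SD of 3 libraries, axes from 0. The collagen sum is 3451, 3135 and 3293 CPM and the laminin sum 753, 694 and 762 CPM in control, NnK-1 and CBRV1-10493, with whiskers that overlap in most panels.

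Partner chains of 1 molecule stood at uneven levels, read as the ratio of their counts within a library. COL1A2 had 18.7 ± 2.01 times the reads of COL1A1 in control, 16.6 ± 1.96 with NnK-1 and 15.6 ± 0.250 with CBRV1-10493 (SD, n = 3). The 3 CBRV1-10493 ratios (15.8, 15.3 and 15.6) lay below the controls (16.4, 19.7 and 19.9). COL4A2 had 3.82 ± 0.556 times the reads of COL4A1 in control, and the 9 ratios ran from 2.42 to 4.45. COL5A1 had 3.10 ± 0.167 times the reads of COL5A2 in control, 2.85 ± 0.244 with NnK-1 and 3.17 ± 0.159 with CBRV1-10493. COL6A1 had 7.35, 8.13 and 8.89 times the reads of COL6A2 in the controls, 9.15, 11.1 and 10.1 times with NnK-1 and 12.0, 9.87 and 7.99 times with CBRV1-10493. The NnK-1 ratios thus lay above the controls, and the CBRV1-10493 ratios overlapped them.

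The laminin chains were closer to each other: LAMC1 had 1.19 ± 0.0576 times the reads of LAMB1 in control, and the 9 ratios ran from 1.05 to 1.32. LAMB1 had 2.50 ± 0.306 times the reads of LAMB2, the alternative beta chain, in control. The ratio of COL4A5 to COL4A6 ran from 2.24 to 16.0, on few reads of COL4A6. The ratios were not tested, and a ratio between different genes also carries their 3′ capture.

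**Figure D4:**
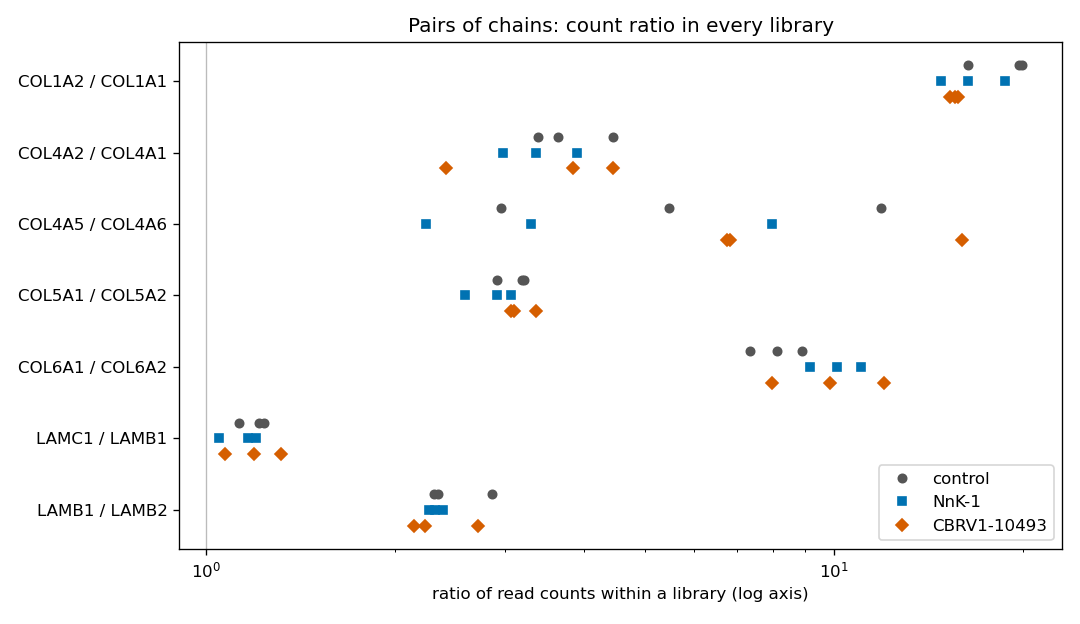
Ratio of read counts (log axis) of 7 pairs of chains in each of the 9 libraries (grey circles control, blue squares NnK-1, orange diamonds CBRV1-10493). COL1A2 to COL1A1 lies between 14.8 and 19.9, LAMC1 to LAMB1 between 1.05 and 1.32, and the NnK-1 ratios of COL6A1 to COL6A2 (9.15 to 11.1) lie above the controls (7.35 to 8.89).

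Whether chains of a type follow each other was read across the 9 libraries on log2(CPM + 1), in 7 pairs, of which 6 join chains of 1 molecule and LAMB1 with LAMB2 sets 2 alternative beta chains side by side, with an exact permutation test (two-sided) and Benjamini-Hochberg adjustment over the pairs. LAMB1 and LAMC1 had the highest Pearson's r of the 7 pairs, at 0.851 (exact p = 0.00567, adjusted p = 0.0397), while Spearman's rho was 0.583 (exact p = 0.108, adjusted p = 0.232). Without NnK-1 replicates 1 and 2, the libraries farthest from the median of LAMB1, r was 0.573, so the relation rests on those libraries. The other 6 pairs did not pass. COL5A1 and COL5A2 had r = 0.674 (exact p = 0.0553, adjusted p = 0.132), and r was 0.809 without control replicate 1 and NnK-1 replicate 1. COL6A1 and COL6A2 had r = 0.639 (exact p = 0.0634, adjusted p = 0.132) and the highest rho of the 7, 0.70 (exact p = 0.0433, adjusted p = 0.232). COL1A1 and COL1A2 had r = 0.609 (exact p = 0.0752, adjusted p = 0.132). For COL4A1 and COL4A2, on their shared promoter, r was 0.129 (exact p = 0.740, adjusted p = 0.740) and rho -0.20 (exact p = 0.613). LAMB1 with LAMB2 gave r = 0.386 and COL4A5 with COL4A6 r = -0.218, with adjusted p of 0.440 and 0.682 in the exact permutation test. Without control replicate 1 and CBRV1-10493 replicate 3, the libraries farthest from the median of LAMB2, r of LAMB1 with LAMB2 was 0.907. With 2 libraries left out by the first-named chain, r was 0.281 for COL1A1 with COL1A2 and 0.520 for COL6A1 with COL6A2. It was -0.431 for COL4A1 with COL4A2 and -0.089 for COL4A5 with COL4A6. All these points share library totals, and 3 libraries a group are too few for a value within a group.

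The first comparison asked which of these genes differ between NnK-1 and untreated cells. No collagen or laminin gene passed edgeR's quasi-likelihood test at an adjusted p of 0.05 (0 of 34), against 0 of all 13676 genes tested (0%). At an unadjusted p under 0.05 there were 2 of 34, COL6A2 and COL4A5, both lower with NnK-1, against 1001 genes or 7.32% of all. COL6A2 had a log2 fold change of -0.42 (standard error 0.139, 95% interval -0.71 to -0.13), with an unadjusted p of 0.00663 and an edgeR adjusted p of 0.578. By DESeq2, edgeR's exact test and limma-voom as well, 0 collagen and laminin genes passed in each of the 3 comparisons. Mean COL6A2 was 150.4 CPM in control against 110.2 CPM after NnK-1. COL4A5 had a log2 fold change of -0.59 (standard error 0.263, edgeR adjusted p = 0.666), and NnK-1 replicate 1 lay among the controls: without it the log2 fold change was -0.98, and without NnK-1 replicate 2 it was -0.38. The number of genes with an unadjusted p under 0.05 was 6 of 36 tested without NnK-1 replicate 3 and 1 of 36 without NnK-1 replicate 2. The share of all genes was not counted in these fits, so these counts cannot be set against a background.

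Of the genes with at least 20 CPM, the next smallest p belonged to COL1A2 (-0.17, 95% interval -0.39 to 0.04), LAMC1 (-0.17, -0.40 to 0.06) and COL27A1 (-0.19, -0.47 to 0.10), all as log2 fold changes with NnK-1. Of the genes under 20 CPM, COL7A1 stood at 0.40, LAMB3 at -0.48 and COL9A3 at -0.25 on the log2 fold change scale, each with an interval that held 0. Most of these values moved by over 1.5 times without 1 library: COL1A2 stood at -0.08 and LAMC1 at -0.08 without NnK-1 replicate 2, which also took COL7A1 to 0.16. LAMC1 stood at -0.26 and LAMB3 at -0.30 without NnK-1 replicate 3, and COL9A3 at -0.15 without NnK-1 replicate 1. Without control replicate 1, COL7A1 stood at 0.18 and LAMB3 at -0.22, and without control replicate 2 COL9A3 at -0.16. The NnK-1 libraries lay without overlap below control for 2 of the 34 genes, COL6A2 and COL1A2, and above it for none, where 7.92% of all tested genes lay below and 5.08% above. The log2 fold change was under 0 for 27 of the 34 genes, against 49.4% of all tested genes, with a median of -0.11 against 0.0033 for all. The median of the same 34 genes was -0.06 without NnK-1 replicate 1, -0.06 without control replicate 3, -0.16 without control replicate 1 and -0.18 without NnK-1 replicate 3. Since the 34 genes were read in the same libraries and can vary together, these shares describe them and test nothing. Among classes, 20 of 25 tested collagens and 7 of 9 tested laminins were below 0.

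The second comparison set CBRV1-10493 against the same controls. Again 0 of 34 genes passed, against 0 of all 13676 (0%), and 1 of 34 had an unadjusted p under 0.05, against 2.89% of all. This gene was again COL6A2 (log2 fold change -0.36, standard error 0.139, 95% interval -0.65 to -0.07, unadjusted p = 0.0186, adjusted p = 1.00 by edgeR). Its 3 CBRV1-10493 libraries overlapped the controls, and the log2 fold change was -0.17 without CBRV1-10493 replicate 1. COL1A1 was at 0.25 (-0.03 to 0.54), COL18A1 at -0.16 (-0.42 to 0.10) and COL27A1 at -0.16 (-0.45 to 0.12). COL1A1 stood at 0.17 without CBRV1-10493 replicate 3 and COL18A1 at -0.09 without control replicate 3.

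Below 20 CPM, COL4A6 stood at -0.84, COL9A3 at -0.21, COL12A1 at 0.35 and COL7A1 at 0.22 on the log2 scale, all with intervals that held 0. The COL7A1 value was 0.0050 without control replicate 1 and 0.36 without control replicate 2. The COL4A6 value was -0.23 without control replicate 2. COL9A3 lay between -0.33 (without control replicate 1) and -0.11 (without CBRV1-10493 replicate 3), with -0.12 without control replicate 2 and -0.32 without CBRV1-10493 replicate 2. COL12A1 stood at 0.19 without control replicate 3 and 0.23 without CBRV1-10493 replicate 3. COL27A1 was the 1 gene of 34 whose groups did not overlap, lower with the peptide, where 4.96% of all tested genes lay below control and 3.91% above. The log2 fold change was under 0 for 21 of 34 genes, against 49.2% of all, with a median of -0.04 against 0.0027 for all tested genes. This direction rests on 1 library: without CBRV1-10493 replicate 1 the median of the same 34 genes was 0.02, with 16 under 0. It was -0.09 without control replicate 1, -0.01 without control replicate 3 and -0.08 without CBRV1-10493 replicate 3. The number with an unadjusted p under 0.05 was 3 of 36 tested without control replicate 1 and 2 of 35 without CBRV1-10493 replicate 3. It was 0 of 36 without control replicate 2 and 0 of 34 without control replicate 3. Here too the share of all genes was not counted in these fits.

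Side by side, the log2 fold changes of NnK-1 and CBRV1-10493 against their shared controls were -0.11 and -0.12 for COL6A1, -0.42 and -0.36 for COL6A2 and -0.21 and -0.12 for COL6A3. They were -0.17 and -0.00075 for COL1A2, -0.17 and -0.0035 for LAMC1 and -0.59 and -0.06 for COL4A5. Because both sets of values share the same control libraries, no correlation between them is given.

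The third comparison set CBRV1-10493 directly against NnK-1, with dose and time matched, over 34 genes. None passed (0 of 34, against 0% of all), and 0 of 34 had an unadjusted p under 0.05, against 4.31% of all tested genes. For COL6A2 the peptides differed by 0.07 on the log2 scale (95% interval -0.23 to 0.36, edgeR adjusted p = 0.994), and for COL6A1 by -0.0073 (-0.24 to 0.23). COL1A1 was at 0.27 (-0.02 to 0.55), COL11A1 at 0.20 (-0.06 to 0.45), COL1A2 at 0.17 (-0.04 to 0.38) and LAMC1 at 0.17 (-0.06 to 0.39), all higher in mean with CBRV1-10493. COL11A1 stood at 0.05 without NnK-1 replicate 1 and 0.33 without NnK-1 replicate 3. COL1A2 and LAMC1 stood at 0.08 and 0.07 without NnK-1 replicate 2, at 0.08 and 0.09 without CBRV1-10493 replicate 3 and at 0.27 and 0.26 without CBRV1-10493 replicate 1, and LAMC1 at 0.25 without NnK-1 replicate 3. LAMA4 (0.12, -0.06 to 0.30) and LAMB3 (0.62, -0.03 to 1.27) were the 2 of 34 genes higher with CBRV1-10493 without overlap, where 4.71% of all tested genes were so and 4.17% lower, against 0 of 34 lower.

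Among the genes under 20 CPM, COL4A5 stood at 0.53, COL4A6 at -0.64 and COL16A1 at 0.82, and their intervals held 0. COL16A1 depended most on single libraries: it stood at 2.51 without NnK-1 replicate 3, 0.47 without NnK-1 replicate 1, 0.32 without NnK-1 replicate 2 and 0.25 without CBRV1-10493 replicate 3. COL4A5 stood at 0.92 without NnK-1 replicate 1 and 0.32 without NnK-1 replicate 2. COL4A6 stood at -0.25 without NnK-1 replicate 3, -0.42 without CBRV1-10493 replicate 1 and -0.97 without CBRV1-10493 replicate 3. In all, 13 of 34 were under 0, against 49.7% of all, with a median of 0.05 against 0.0011 for all tested genes. Without NnK-1 replicate 3, or without CBRV1-10493 replicate 1, 8 of the same 34 were under 0, with medians of 0.12 and 0.10, and without CBRV1-10493 replicate 2 the median was 0.02. The number with an unadjusted p under 0.05 was 4 of 36 tested without CBRV1-10493 replicate 1. It was 2 of 36 without NnK-1 replicate 1 or NnK-1 replicate 3 and 2 of 35 without CBRV1-10493 replicate 3. Without control replicate 2 it was 1 of 36, and without CBRV1-10493 replicate 2 it was 1 of 35. For these fits as well the share of all genes was not counted. Over all genes with at least 20 CPM the median 95% interval reached 0.27 to 0.28 to each side on the log2 scale in the 3 comparisons. These intervals are for 1 gene at a time and are not adjusted over all genes. Differences within them were not detectable at this depth and number of libraries, and larger ones could also fail to pass. That no gene passed does not show that the peptides act alike.

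**Figure D5:**
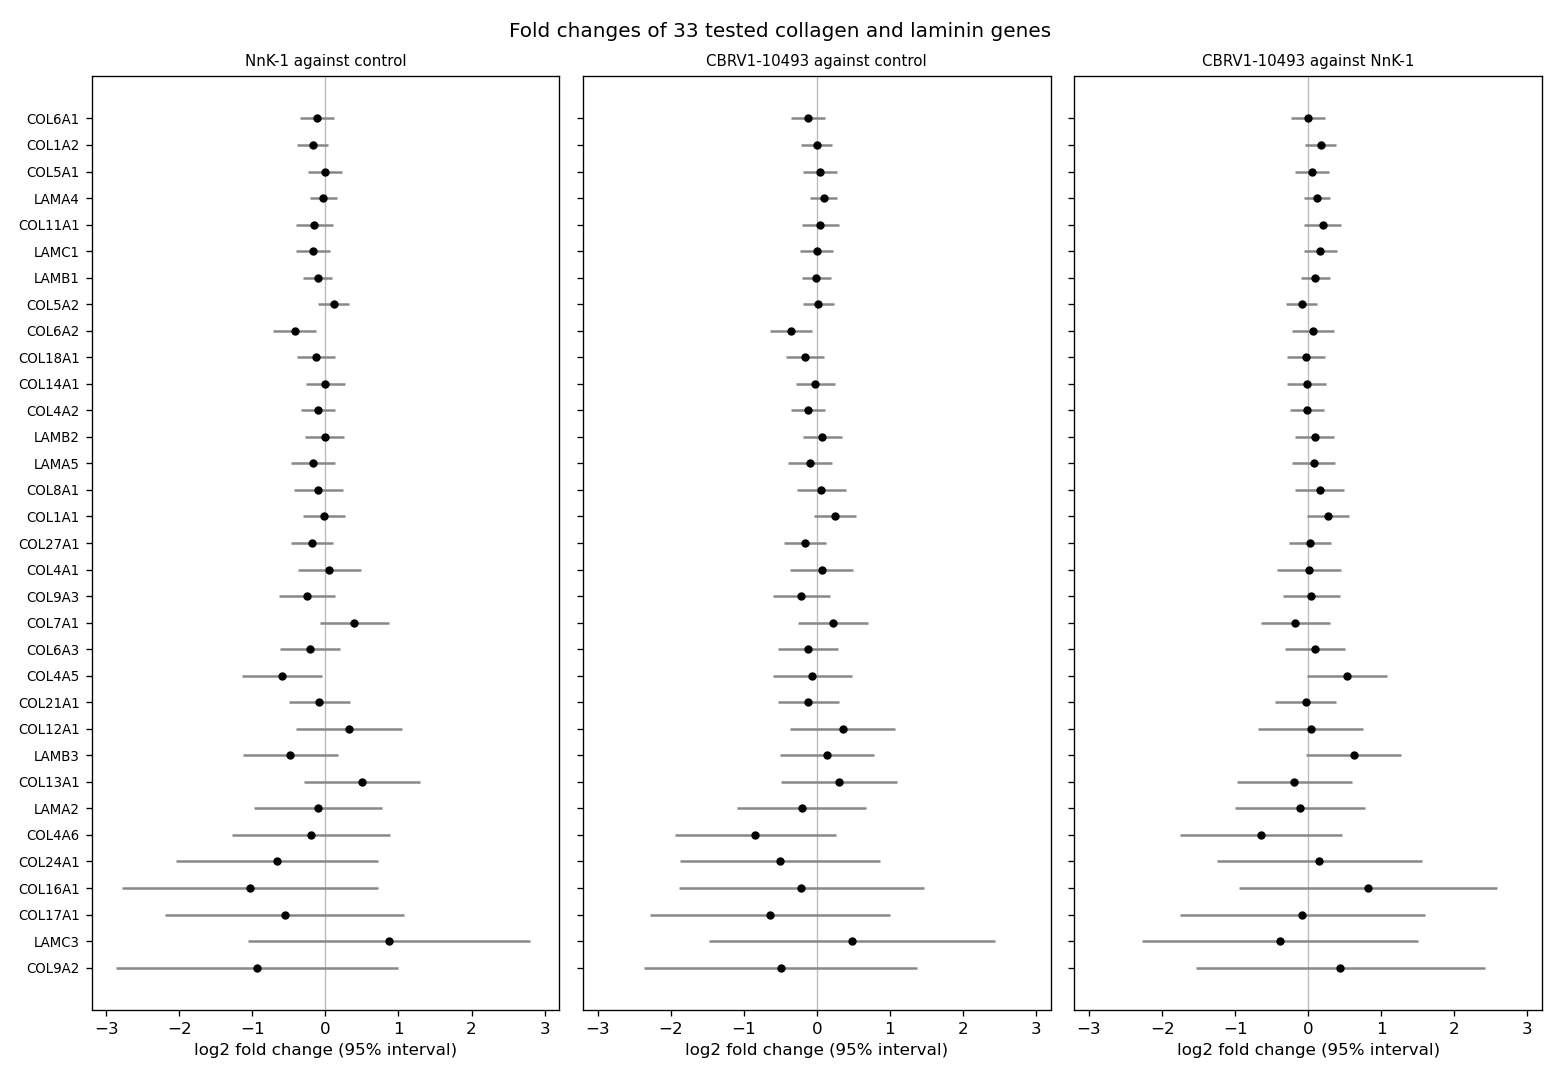
Log2 fold changes (points) with 95% intervals (lines) of 33 of the 34 tested genes in the 3 comparisons, ordered by mean CPM. Intervals widen from COL6A1 at the top to COL9A2 at the bottom; against control, only COL6A2 (both peptides) and COL4A5 (NnK-1) have intervals that leave out 0.

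The genes that fold, cross-link and bind these chains were taken from 3 lists: collagen processing (29 genes tested of 32 found), matrix partners (13 of 16) and receptors (11 of 15). None of these genes passed in any of the 3 comparisons. Unadjusted p under 0.05 was reached with NnK-1 against control by 2, 2 and 1 genes of the lists in that order (6.90%, 15.4% and 9.09% of those tested, against 7.32% of all genes). With CBRV1-10493 against control it was reached by 1, 0 and 0 (3.45%, 0% and 0%, against 2.89%), and between the peptides by 3, 1 and 0 (10.3%, 7.69% and 0%, against 4.31%). The highest processing genes were the cross-linking enzyme LOXL2 (802 CPM over the 9 libraries), the prolyl hydroxylase subunits P4HB (789 CPM) and P4HA1 (514 CPM), and CRTAP (494 CPM). The highest partners were SPARC, a collagen-binding glycoprotein (2045 CPM), TGFBI (1005 CPM), the proteoglycan VCAN (535 CPM) and PXDN, which cross-links type IV collagen (441 CPM). Receptors were led by the integrin chains ITGB1 (423 CPM) and ITGA3 (263 CPM), the collagen receptor DDR1 (215 CPM) and dystroglycan, DAG1 (172 CPM).

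FKBP10, a chaperone and prolyl isomerase of collagen, had the smallest unadjusted p of these lists with NnK-1 (0.000614). It stood at 38.3, 26.0 and 18.1 CPM in the controls and 12.5, 14.1 and 12.8 CPM with NnK-1, all 3 below every control (log2 fold change -1.03, edgeR adjusted p = 0.499), and at 13.3, 25.5 and 26.1 CPM with CBRV1-10493. COLGALT1, which adds galactose to collagen chains, stood at 349, 395 and 452 CPM in the controls and higher at 505, 604 and 486 CPM with NnK-1 (log2 fold change 0.44, the same edgeR adjusted p of 0.499). AGRN, agrin, a basement membrane proteoglycan, stood at 28.6, 23.3 and 19.0 CPM in the controls and 14.1, 15.3 and 14.9 CPM with NnK-1 (log2 fold change -0.65), and ITGA3, a laminin receptor chain, had a log2 fold change of -0.41 with NnK-1. The calls on FKBP10, COLGALT1 and ITGA3 depend on the filter on low counts: without it their edgeR adjusted p with NnK-1 was 0.000246, 0.00293 and 0.0264, and no collagen or laminin gene passed. The nearest was COL6A2, with an edgeR adjusted p of 0.0561 in that fit. With NnK-1, 4 of 13 matrix partners (AGRN, FN1, TGFBI and SPARC) lay below control without overlap and 0 above. Of all tested genes 7.92% lay below in this way and 5.08% above. Of 29 processing genes 2 lay below and 1 above, and of 11 receptors 1 lay below and 0 above. The other genes of smallest p were FN1, TGFBI, SPARC, LOXL1, PLOD3, BCAM, DAG1 and DDR1 with NnK-1, with log2 fold changes between -0.53 (BCAM) and 0.27 (DAG1). With CBRV1-10493 they were PCOLCE2, PCOLCE, ADAMTS3, LOXL4, HSPG2, BGN, ITGA2 and ITGA1, between -1.07 (PCOLCE2) and 1.01 (ADAMTS3), beside FN1, AGRN, BCAM and DAG1. Between the peptides, the genes with an unadjusted p under 0.05 were FKBP10 (0.71), COLGALT1 (-0.31) and P3H2, a collagen prolyl hydroxylase (0.38), of the processing list and TGFBI (0.21) of the matrix partners, as log2 fold changes of CBRV1-10493 against NnK-1, with an edgeR adjusted p of 0.994 for each. PCOLCE2, AGRN, BGN, FBN1 (fibrillin, a chain of elastic microfibrils), ITGA3, ITGA2, ITGA1 and DAG1 came next in their lists, between -0.92 (PCOLCE2) and 0.60 (ITGA1), with intervals that held 0. The directions of ITGA1 and DAG1 each rest on 1 library: ITGA1 stood at -0.23 without CBRV1-10493 replicate 3, and DAG1 at 0.08 without NnK-1 replicate 2.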

How the data were processed

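Per the labels, RNA was extracted with TRIzol, and QuantSeq 3′ libraries were read on a NextSeq as single ends of 75 bp. Bowtie2, bedtools and the build hg19 are named in the submitters' processing notes; the sources used here give no versions, annotation or strand setting. The deposited files hold raw read counts per gene symbol, not normalized values, per the file headers and values. The submitters' design text names edgeR with TMM. Groups came from the labels. Entries of 1 symbol were summed (25737 entries, 24462 symbols). CPM is the count divided by the library total. Genes were filtered by filterByExpr (minimum count 10, minimum total 15), scaled by TMM and tested by the quasi-likelihood test of edgeR 4.0.16 (R 4.3.3) in 1 fit over 9 libraries, two-sided, with Benjamini-Hochberg adjustment over 13676 genes and a threshold of 0.05. The common biological coefficient of variation was 0.169. The fit was tested on simulated counts of NnK-1 against control, 5 times with 200 of 13676 genes changed. It recovered 34.8% of genes changed 1.5-fold and 65.2% of those changed 2-fold. DESeq2 1.42.0, edgeR's exact test, limma-voom (limma 3.58.1), other scalings and filters, a replicate block and left-out libraries were the alternatives. No 2 libraries agreed within sampling noise. The genes, lists and tests were chosen with earlier results of these data known. Genes with at least 20 CPM were given by library; of the others and of each related list, those with the 4 smallest p in each comparison, and the 4 highest of each list, were named. Markers of pericytes, epithelium, neurons and immune cells were also read. In control their lists summed to 27.8 to 29.9, 9.64 to 10.2, 388 to 445 and 3.90 to 5.04 CPM. The neuron sum came mainly from TUBB3 (221 CPM) and MAP2 (180 CPM), with SYT1 at 10.5, SNAP25 at 0.495 and RBFOX3 at 0.286 CPM. The values of 1 of the genes are not reported here by name; it stays in the counts, sums and fits.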

Additional observations from a re-analysis of the deposited data

How the results depend on the processing

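No collagen or laminin gene passed in any of the 3 comparisons under any of the 19 alternatives. The smallest adjusted p over the alternatives ran from 0.0561 to 0.922 with NnK-1, 0.860 to 1.00 with CBRV1-10493 and 0.392 to 1.00 between the peptides. The value of 0.0561 was that of COL6A2 in edgeR's quasi-likelihood test without the filter on low counts. Over all genes, the count passing was 0 in the quasi-likelihood test with filter. Without the filter on low counts it was 74 with NnK-1, 6 with CBRV1-10493 and 1 between the peptides; with NnK-1 it was 2 by DESeq2's Wald test and 8 by edgeR's exact test, and with CBRV1-10493 it was 2 by the exact test. The cause was not tested. Leaving out 1 library at a time gave 0 passing genes in each comparison. Most named genes were picked by their small p in the main fit, and the alternatives reuse its libraries. A kept direction was thus likely in advance and is no independent support. Of 1130 log2 fold changes of named genes under an alternative, 1126 kept their direction. The 4 others were ITGA1 without CBRV1-10493 replicate 3, at -0.030 against control and -0.23 against NnK-1, DAG1 between the peptides without NnK-1 replicate 2, at 0.082, and BGN between the peptides without NnK-1 replicate 2 and CBRV1-10493 replicate 1, at 0.12. With libraries left out, ITGA1 ran from -0.030 to 1.29 against control and from -0.23 to 1.09 against NnK-1, and between the peptides DAG1 ran from -0.20 to 0.082 and BGN from -0.88 to 0.12. This last alternative was chosen after seeing the data. With NnK-1 against control, FKBP10, COLGALT1 and ITGA3 passed without the filter only. The number of collagen and laminin genes with an unadjusted p under 0.05 in that comparison was 6 of 36 tested without NnK-1 replicate 3 and 1 of 36 without NnK-1 replicate 2, against 2 of 34 with all libraries. The share of all genes (7.32%) was counted with all libraries only.

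With the replicate number as a block, 0 collagen and laminin genes and 0 genes in all passed in each comparison. Same-numbered libraries deviated together with correlations of -0.10 to 0.21, over 0.1 in 1 of 9 pairs, and a library correlated best with its own number in 5 of 18 cases, so the numbers were not taken to pair the libraries. TMM-scaled CPM, or the entry with the most reads in place of the sum, left 18 genes at 20 CPM or more. A pseudocount of 0.5 changed no call on the 7 pairs of chains.

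With 3 libraries a group the intervals of genes under 20 CPM are wide, and 16 of the 34 tested genes lie there.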
